A study of Rattus norvegicus with 6 samples.

Results

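The AMP-activated protein kinase (AMPK) and the mechanistic target of rapamycin (mTOR) were followed through 10 genes in the hippocampus of rats given amyloid-beta (Aβ) oligomers and of Sham rats. The genes were 6 AMPK subunits (Prkaa1, Prkaa2, Prkab1, Prkab2, Prkag1 and Prkag2), the AMPK-activating kinases Stk11 and Camkk2, the kinase Mtor and its partner Rptor. Probes were assigned to them by accession, and each of the 10 genes had 1 probe, of 15168 genes with a symbol on the array. The group of genes was chosen from earlier AD against Sham results of these same arrays. The AD against Sham values of the 10 genes are therefore a description and support nothing by themselves.

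The samples were hippocampi of male Sprague Dawley (SD) rats, adult according to the study's methods. In the AD group (3 samples) Aβ1–42 oligomers had been placed in the cerebral ventricles, and in the Sham group (3 samples) the vehicle had been placed in both lateral ventricles through a steel cannula. No transgene was involved, so AD here means an injected model, and both groups had undergone injection. The study drew its tissue from a larger cohort, and the labels do not tie a sample to an animal, so a p-value below compares the groups with the scatter of the 6 samples, part of which may be technical. Each sample was hybridised to 1 single-colour Agilent rat array. A level below is the log2 processed signal minus the 75th percentile of that array, so that 0 is the 75th percentile. Levels of different probes are not comparable with each other. In whole tissue, fewer cells of a type and less RNA per cell cannot be told apart.

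AMPK is an energy sensor made of a catalytic α subunit, a scaffolding β subunit that also binds glycogen, and a γ subunit that binds AMP, ADP and ATP. LKB1 (Stk11) phosphorylates the α subunit when energy is low, and the calcium-dependent kinase CaMKK2 (Camkk2) does so when calcium rises. mTOR is the catalytic subunit of a pair of complexes, and raptor (Rptor) brings substrates to mTOR complex 1, which drives protein synthesis and restrains autophagy. AMPK restrains mTOR complex 1, in part by phosphorylating raptor. In neurons this axis is known for its roles in synaptic protein synthesis, in autophagy and in the response to Aβ, where CaMKK2 and AMPK have been studied. These kinases are regulated largely by phosphorylation, which an mRNA array does not measure.

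Limma tested 22769 probes, of which 2858 (12.6%) had an adjusted p under 0.05. Of all tested probes 8.4% were called lower and 4.15% higher in AD. The 75th percentile of the signal was 753 to 932 on 5 arrays and 429 on Sham replicate 3, which was scanned on another day. The 3 AD arrays were scanned together, and no scan held both groups, so scan and group cannot be told apart. Between 70.8% and 79.7% of probes were well above background on an array. All 10 member probes were well above background on all 6 arrays and were tested. Limma called 2 of the 10, Prkab2 and Rptor, both lower in AD, beside the background of 12.6%. On average 4 members were higher and 6 lower, with a median difference of -0.02 on the log2 scale, against -0.011 over all tested probes. The groups did not overlap for 5 members, 3 higher and 2 lower, where 39% of all tested probes had groups that did not overlap. Since these values chose the genes, nothing is read from the counts.

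**Figure D1:**
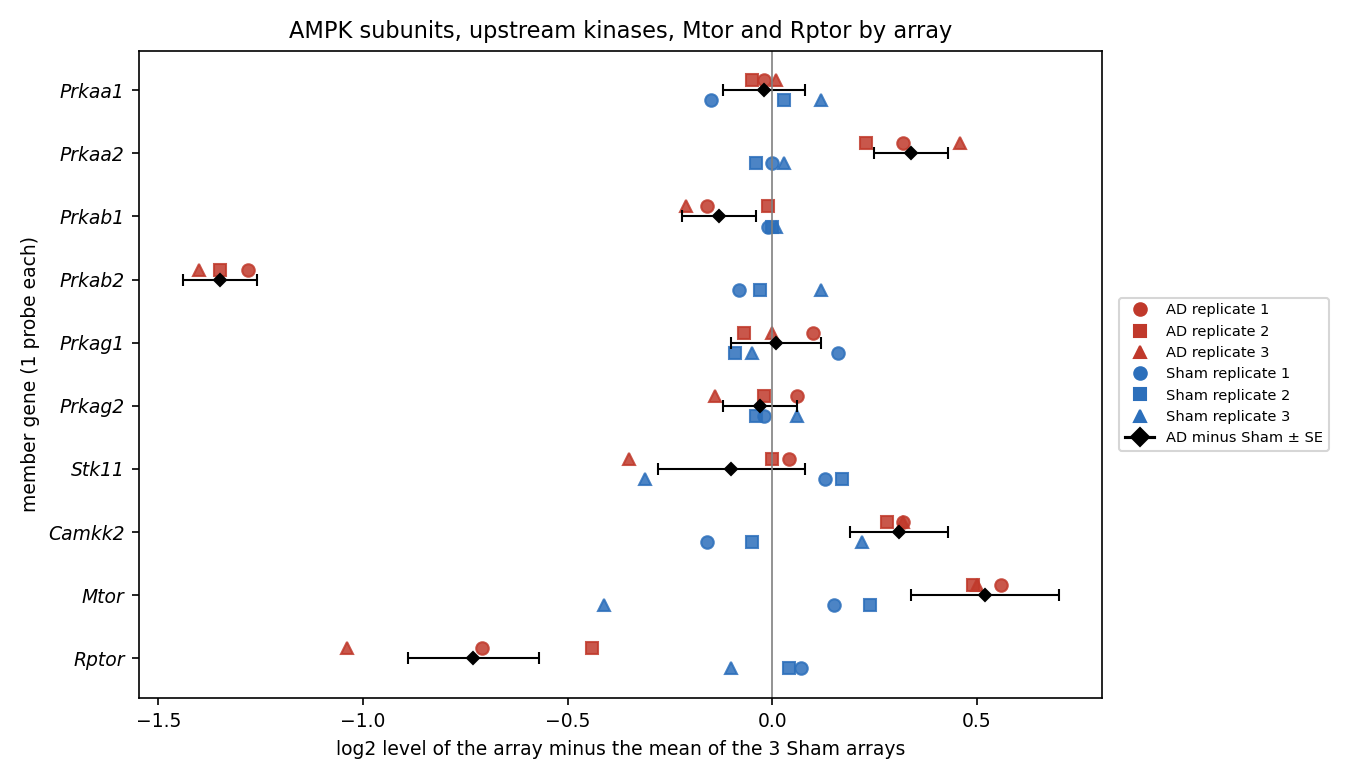
Level of each member gene on each array, as the log2 level minus the mean of the 3 Sham arrays (horizontal axis), with AD arrays in red and Sham arrays in blue. Black diamonds give the AD minus Sham difference with its standard error, and Prkab2 (-1.35) and Rptor (-0.73) lie farthest to the left and Mtor (0.52) farthest to the right.

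Of the β subunits, Prkab2 was lower in AD and Prkab1 differed little. Prkab2 encodes β2, the β subunit typical of skeletal muscle, and its levels were -4.77, -4.84 and -4.89 in AD (replicates 1 to 3, in that order here and below) and -3.57, -3.52 and -3.37 in Sham. Every AD array lay below every Sham array, with a gap of 1.205 between the nearest arrays. The difference was -1.35 ± 0.09 (SE, n = 3 per group), or 2.54-fold lower in AD, with a 95% confidence interval of -1.57 to -1.12 and a limma adjusted p of 0.0183. Only 167 tested probes had a more negative difference. The probe was dim, with processed signals of 32.7, 27.8 and 31.4 in AD and 63.4, 65.7 and 41.4 in Sham. Its difference was smaller in size under normexp correction. That setting started from median spot intensities, subtracted the local background, modelled what background was left and added an offset of 50. With it the Prkab2 difference was -0.81 and still passed (limma adjusted p = 0.0207). An added constant of that size itself alters log2 differences of dim probes, and its part was not separated from those of the other steps. As reported, the Prkab2 difference ranged from -1.39 to -1.29 when single arrays were left out. The adjusted p was then 0.0514 to 0.117 without AD replicate 1, 2 or 3 or Sham replicate 1 or 2, where the fit called at most 2 probes on the whole array.

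Prkab1 encodes β1, the other β subunit, with levels of 1.02, 1.17 and 0.97 in AD and 1.17, 1.18 and 1.19 in Sham. AD replicate 2 reached the Sham values and the other AD arrays lay just under them. The difference was -0.13 ± 0.09, with an interval of -0.34 to 0.09, which leaves out a fall as large as that of Prkab2. Within an array, where any scaling cancels, the difference between the Prkab2 and Prkab1 probes was -1.13, -1.34 and -1.19 from its Sham mean in AD, while the Sham arrays lay at -0.07, -0.03 and 0.11. The mean was -1.22, and -0.72 under normexp correction, again with no overlap. The β subunit mRNAs thus differed unequally, which does not show that Prkab1 was unaltered.

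The 250 bases before the annotated start of these paralogs, as RefSeq gives them on GRCr8, are shown because the subunits differ in their AD values while doing the same job in the complex. Capitals mark a GC box, the only one of 5 searched motifs found in either. The regions are chr2:187946151-187946400 (plus strand) for Prkab2 and chr12:46248845-46249094 (plus strand) for Prkab1.
Prkab2: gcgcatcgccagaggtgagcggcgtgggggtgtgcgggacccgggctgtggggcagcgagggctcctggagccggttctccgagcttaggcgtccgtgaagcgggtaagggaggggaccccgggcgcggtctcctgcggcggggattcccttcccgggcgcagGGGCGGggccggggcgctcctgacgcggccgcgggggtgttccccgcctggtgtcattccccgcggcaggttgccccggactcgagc
Prkab1: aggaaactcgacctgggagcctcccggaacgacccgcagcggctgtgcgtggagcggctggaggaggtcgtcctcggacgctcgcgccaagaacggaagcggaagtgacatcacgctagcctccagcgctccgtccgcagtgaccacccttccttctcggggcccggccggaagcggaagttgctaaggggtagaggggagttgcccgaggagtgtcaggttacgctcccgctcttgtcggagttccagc
The Prkab2 region was 76% G or C with 31 CpG pairs, and the Prkab1 region 66% with 26, where the median of all 33469 rat promoters in the table was 51.2% with 5. The motifs were the E-box CACGTG, the CRE TGACGTCA, the GC box GGGCGG, the CCAAT box CCAAT and the TATA box TATAAA, each on both strands. Prkab2 had 1 GC box, 87 bases before the start, and Prkab1 had none of the 5. A GC box stood in 30.5% of all promoters, a CCAAT box in 34%, a TATA box in 12.9%, an E-box in 5.6% and a CRE in 1.6%. The table held 9 promoters of 8 members. Prkaa1 had 6 GC boxes, Mtor 4 GC boxes and 3 CCAAT boxes, and Stk11 3 CCAAT boxes. These matches describe the letters in the window and say nothing of any factor's binding.

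Among the catalytic subunits, Prkaa2 was higher in AD on every array and Prkaa1 was level. Prkaa2 encodes α2, the more abundant α subunit in neurons and muscle. Its levels were -1.84, -1.93 and -1.70 in AD and -2.16, -2.20 and -2.13 in Sham, so the groups did not overlap. The difference was 0.34 ± 0.09 (interval 0.11 to 0.57), 1.27-fold, with a limma adjusted p of 0.0633, which missed the threshold. The probe was spotted 10 times on each array, and the SD between its spots was 0.049 to 0.101. The difference ran from 0.17 to 0.42 over 19 processing alternatives, and 0.17 was the value under normexp correction, where the groups overlapped.

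Prkaa1 encodes α1. It had levels of -3.03, -3.06 and -3.0 in AD and -3.16, -2.98 and -2.89 in Sham, with the AD arrays inside the Sham range. The difference was -0.02 ± 0.10 with an interval of -0.26 to 0.23. Within arrays, the Prkaa2 to Prkaa1 difference stood 0.35, 0.28 and 0.45 above its Sham mean on the AD arrays, against 0.16, -0.07 and -0.09 on the Sham arrays. The α subunits thus also differed unequally within each AD array, by 0.36 on average and by 0.34 under normexp correction.

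The γ subunits did not separate the groups. Prkag1, γ1, had levels of -0.63, -0.80 and -0.73 in AD and -0.57, -0.82 and -0.78 in Sham, a difference of 0.01 ± 0.11 (interval -0.25 to 0.27). Prkag2, γ2, the subunit altered in an inherited heart disease with glycogen storage, had levels of 1.13, 1.05 and 0.93 in AD and 1.05, 1.03 and 1.13 in Sham. Its difference was -0.03 ± 0.09 (interval -0.25 to 0.19). Over the alternatives the difference ran from -0.04 to 0.11 for Prkag1, from -0.08 to 0.08 for Prkag2 and from -0.17 to 0.07 for Prkaa1, so no direction is given for these genes.

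The upstream kinases differed in pattern. Stk11, LKB1, had levels of -4.62, -4.66 and -5.01 in AD and -4.53, -4.49 and -4.97 in Sham, with replicate 3 lowest in both groups. The difference was -0.10 ± 0.18, and the interval of -0.53 to 0.32 was the second widest among the members, after that of Mtor. Its probe was dim, with processed signals of 13.7 to 36.2, and the difference was -0.29 under normexp correction. Camkk2 had levels of -1.69, -1.73 and -1.69 in AD and -2.17, -2.06 and -1.79 in Sham. All AD arrays lay above all Sham arrays, but only 0.063 separated the nearest, and Sham replicate 3 was the highest of the Sham arrays. The difference was 0.31 ± 0.12 (interval 0.02 to 0.59), with an adjusted p of 0.136 in limma, and it was 0.41 without Sham replicate 3 (adjusted p = 0.0284). Under normexp correction it was 0.13 and the groups overlapped. Within arrays, the difference between the Camkk2 and Stk11 probes overlapped between the groups as reported but not under normexp correction.

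Mtor was higher and Rptor lower in AD. Mtor had levels of -1.03, -1.10 and -1.09 in AD and -1.44, -1.35 and -2.0 in Sham, with Sham replicate 3 far below the other Sham arrays. The difference was 0.52 ± 0.18 (interval 0.08 to 0.96), 1.43-fold, with a limma adjusted p of 0.112. Without Sham replicate 3, which also leaves the comparison within 1 scan day, it was 0.32, with an adjusted p of 0.0453. The size of the Mtor difference therefore rests in part on that array. Its direction was the same under all 19 alternatives, many of which could not have changed it. Groups that do not overlap keep their direction when any array is left out, and another filter or test leaves the difference as it was.

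Rptor had levels of 1.66, 1.93 and 1.33 in AD and 2.44, 2.41 and 2.27 in Sham. The highest AD array lay 0.336 below the lowest Sham array, and the AD arrays were spread more widely (SD 0.30) than the Sham arrays (SD 0.09). The difference was -0.73 ± 0.16 (interval -1.13 to -0.33), 1.66-fold lower, with a limma adjusted p of 0.041. It stayed between -0.88 and -0.58 over the alternatives, and it passed the threshold in 6 of the 18 distinct ones. Without any 1 of AD replicates 1 to 3 or Sham replicates 1 and 2 the adjusted p was 0.0526 to 0.15. The SD among the 10 Rptor spots of an array was 0.059 to 0.15, and among the 6 to 10 usable Mtor spots 0.06 to 0.229. These SDs describe spots within an array and not the spread between samples.

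Within each array, the Rptor to Mtor difference was -1.28, -0.93 and -1.54 from its Sham mean in AD (mean -1.25), against -0.09, -0.21 and 0.30 on the Sham arrays. Of the 5 pairs examined this way, 3 had groups that did not overlap: Prkab2 with Prkab1, Prkaa2 with Prkaa1 and Rptor with Mtor. An array's scaling factor cancels in these differences. Under normexp correction none of the 5 pairs overlapped. Rptor with Mtor then gave -1.02, Camkk2 with Stk11 0.42 and Prkag2 with Prkag1 -0.07. No share for arbitrary pairs of probes was computed, and the pairs come from genes chosen by these values, so nothing is read from the counts.

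**Figure D2:**
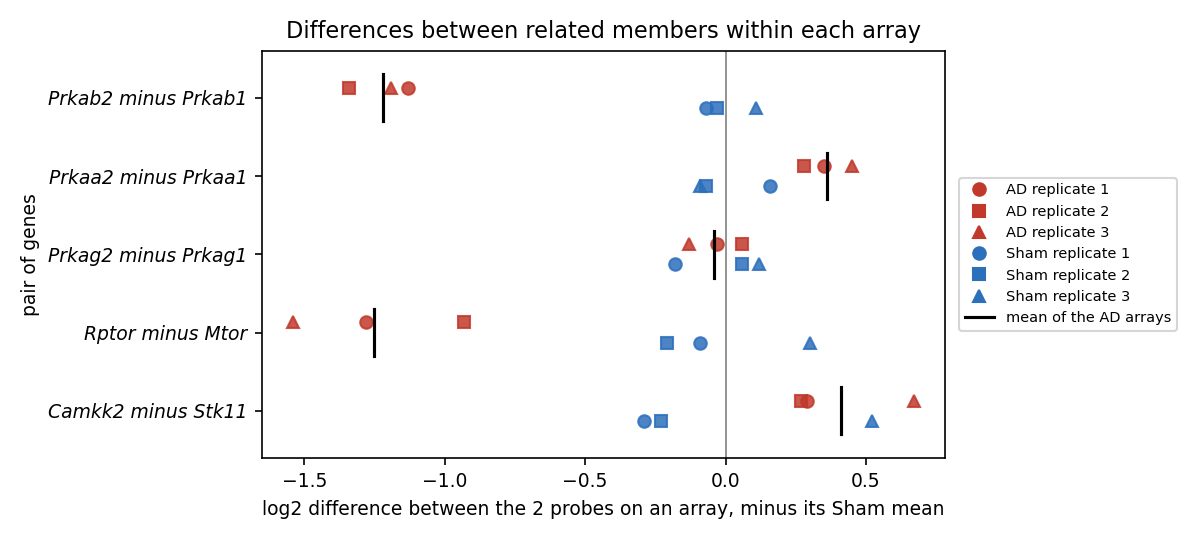
Difference between the probes of 5 pairs of members on each array, shown relative to the mean of the 3 Sham arrays (log2, horizontal axis). AD arrays are red, Sham arrays blue and black bars the AD means, which are -1.22 for Prkab2 minus Prkab1, 0.36 for Prkaa2 minus Prkaa1 and -1.25 for Rptor minus Mtor, with the groups overlapping for the other pairs.

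Of the 19 processing alternatives, scan day as a block and leaving out Sham replicate 3 are the same fit, which leaves 18 distinct ones. Prkaa2, Prkab1, Prkab2, Camkk2, Mtor and Rptor had the same direction in all of them. Alternatives that changed only the filter or the test could not alter a direction. Nor could leaving out an array where the groups did not overlap. Prkab2 was called in 10 of 18, Rptor in 6, and Camkk2, Mtor and Prkaa2 in 2 each. Stk11 changed sign only without AD replicate 3, at 0.02. Under normexp correction the median of all tested probes moved to -0.147, so differences there are best read against that value. Prkaa2, Camkk2 and Mtor were still above it and Prkab2 and Rptor below it.

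**Figure D3:**
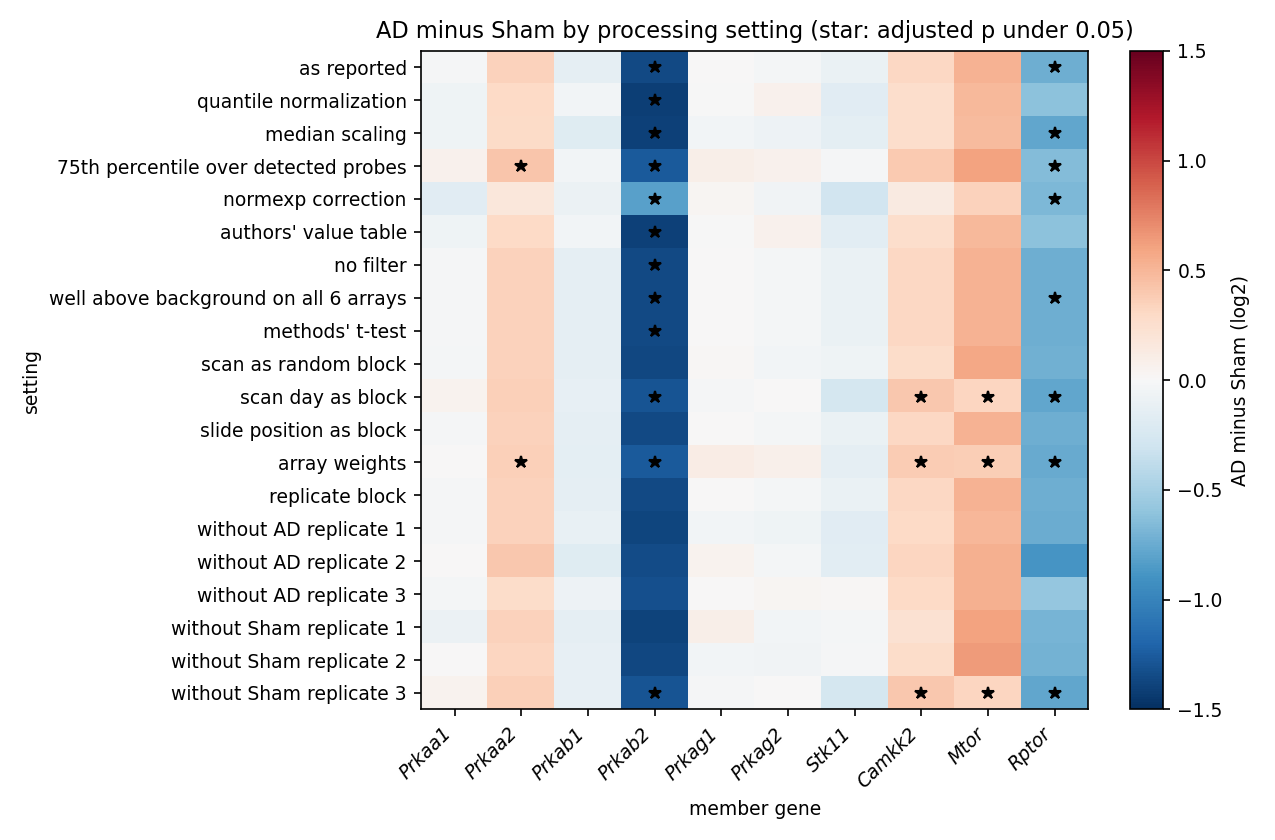
AD minus Sham difference of each member (columns, colour in log2 units) under the reported setting and 19 alternatives (rows), with stars where limma's adjusted p, or that of the methods' t-test in its row, was under 0.05. The Prkab2 and Rptor columns are blue and the Prkaa2, Camkk2 and Mtor columns red in every row, while Prkaa1, Prkag1 and Prkag2 change colour.

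Other genes of the AMPK and mTOR pathway were taken from 9 lists of 124 genes, chosen by their known roles. Of these, 103 were on the array and 100 were tested. Limma called 7 higher and 8 lower in AD, where the share over 1 probe per named gene was 4.08% higher and 10.8% lower, and the median difference was -0.04 against -0.048. No test of the lists as sets was made. The split depended on scaling, with 13 higher and 4 lower when the 75th percentile was taken over detected probes and 5 higher and 9 lower with median scaling. With normexp correction 1 was higher and 6 lower, and 5 of the 15 calls were kept: Cpt1a, Map3k7, Flcn, Rb1cc1 and Atg101. None of the 15 was called by limma without AD replicate 1, 2 or 3 or Sham replicate 1 or 2, with 28 to 40 of the 100 at an unadjusted p under 0.05, while 21 were called without Sham replicate 3, of which 12 were among the 15.

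In the other mTOR complex genes, 2 of 6 tested were called higher and none lower, while the list median was -0.22. Akt1s1, which encodes the mTOR complex 1 inhibitor PRAS40, had levels of -3.48, -3.60 and -3.30 in AD and -4.02, -4.21 and -4.29 in Sham, a rise of 0.71 ± 0.12 (adjusted p = 0.025). It was 0.07 under normexp correction, with an adjusted p of 0.722. Prr5l, which encodes a binding partner of mTOR complex 2, rose by 0.72 ± 0.08 (adjusted p = 0.0183), from levels of -3.79, -3.83 and -3.75 in Sham to -3.04, -3.05 and -3.12 in AD. Its other probe gave 0.11, and the called probe gave 0.20 under normexp correction. The remaining genes, named here after their values were seen, did not pass. Mlst8, a core subunit of both complexes, differed by -0.38 ± 0.11 (adjusted p = 0.0668) and Mapkap1, the mTOR complex 2 subunit SIN1, by -0.41 ± 0.11 (adjusted p = 0.0658). Prr5 gave -0.30 ± 0.22 and the assembly factor Tti1 -0.15 ± 0.25. Of the 6 tested genes of this list 2 lay wholly above and 2 wholly below the Sham arrays in AD, beside the 39% of all probes without overlap.

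Among partners of LKB1 and other kinases upstream of AMPK, 1 of 6 tested genes was called. Map3k7, the stress kinase TAK1, which can phosphorylate AMPK, had levels of -0.05, -0.08 and -0.19 in AD and 0.44, 0.46 and 0.41 in Sham. It fell by 0.54 ± 0.08 on the log2 scale (adjusted p = 0.0217) and kept this under normexp correction, at -0.49. Cab39, which encodes the MO25 scaffold of LKB1, differed by -0.55 ± 0.14 (adjusted p = 0.0525) and was named after its value was seen, as was the LKB1 pseudokinase partner Strada, at -0.44 ± 0.14 (adjusted p = 0.0844). The remaining γ subunit, Prkag3 of fast muscle, differed by -0.05 ± 0.45 with widely scattered arrays. Of 7 tested other kinases activated by LKB1 none passed in limma. Sik1, a salt-inducible kinase, had the largest difference, -2.67 ± 0.93 (adjusted p = 0.111), with levels of -5.55, -5.44 and -6.10 in AD and -5.21, -2.41 and -1.44 in Sham. Sham replicate 1 lay near the AD arrays, so the Sham spread was as wide as the difference. Mark4, a microtubule affinity kinase, differed by -0.44 ± 0.20.

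Calls among regulators of mTOR complex 1 at the lysosome went in both directions, with 2 of 23 tested genes called higher and 3 lower. Sesn3, a sestrin that restrains mTOR complex 1 and acts with AMPK, rose by 0.85 ± 0.20 (adjusted p = 0.043), from -3.61, -3.60 and -4.09 in Sham to -3.21, -2.68 and -2.85 in AD, and gave 0.34 under normexp correction. Of the Rag GTPases, which carry the amino acid signal, Rragd rose by 0.45 ± 0.11 (adjusted p = 0.0458). Rragc fell by 0.56 ± 0.14 (adjusted p = 0.0487). Neither passed under normexp correction (0.28 and -0.51), under median scaling or without Sham replicate 3. A further Rag GTPase, Rraga, differed by -0.15 ± 0.09 (limma adjusted p = 0.32) and was named after its value was seen. Flcn, folliculin, which acts on these GTPases, had levels of 3.13, 3.33 and 3.10 in AD and 3.58, 3.69 and 3.86 in Sham and fell by 0.52 ± 0.11 (adjusted p = 0.0392). Sec13, a subunit of GATOR2 that also serves vesicle coats and nuclear pores, fell by 0.36 ± 0.08 (adjusted p = 0.0455). The insulin and growth factor input had 0 of 13 called by limma. Its largest differences were those of Pik3r1, the p85α regulatory subunit of PI3 kinase, at 0.70 ± 0.19 (adjusted p = 0.0603), and Pik3cb, the p110β catalytic subunit, at 0.44 ± 0.12 (adjusted p = 0.0567).

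Downstream, AMPK targets in metabolism had 2 of 16 tested genes called higher and 1 lower. Cpt1a, the carnitine palmitoyltransferase that admits fatty acids to mitochondria, had levels of -0.54, -0.45 and -0.51 in AD and -1.0, -1.05 and -1.0 in Sham. It rose by 0.52 ± 0.08 (adjusted p = 0.0214) and by 0.41 under normexp correction, where it also passed. Ppargc1a, the coactivator of mitochondrial biogenesis PGC-1α, rose by 0.44 ± 0.10 (adjusted p = 0.0402), and by 0.18 under normexp correction without passing. Acaca, the acetyl-CoA carboxylase that AMPK inhibits, fell by 0.50 ± 0.11 (adjusted p = 0.0425), from -4.84, -4.58 and -4.63 in Sham to -5.06, -5.32 and -5.18 in AD. Its probe was dim and not well above background on all 6 arrays. Under normexp correction it gave -0.43 without passing. Of 12 tested mTOR complex 1 targets and translation factors limma called 0. Among them the initiation factor Eif4b differed by -0.63 ± 0.16 (adjusted p = 0.0527), and its other probe gave 0.09, whereas the elongation factor kinase Eef2k gave -0.43 ± 0.36.

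In autophagy, which AMPK promotes and mTOR complex 1 restrains, 1 of 16 tested genes was called higher and 3 lower. As reported, the called genes of the ULK initiation complex did not share 1 direction. Ulk2, one of its kinases, rose by 0.54 ± 0.10 (adjusted p = 0.0294), with levels of -1.63, -1.66 and -1.54 in AD and -2.16, -2.27 and -2.0 in Sham. Ulk2 gave 0.32 under normexp correction without passing. The kinase Ulk1, named after its value was seen, differed by 0.07 ± 0.14 (limma adjusted p = 0.765). Rb1cc1, the scaffold FIP200 of the complex, fell by 0.61 ± 0.11 (adjusted p = 0.0273), with 0.76, 0.97 and 0.72 in AD and 1.34, 1.38 and 1.54 in Sham. Atg101 fell by 0.51 ± 0.08 (adjusted p = 0.0236), with -1.27, -1.14 and -1.23 in AD and -0.67, -0.76 and -0.69 in Sham. Both are partners of the ULK kinases, and for both every AD array lay below every Sham array. Under normexp correction Rb1cc1 gave -0.53 and Atg101 -0.41, and both passed. Atg14, the autophagy subunit of the class III PI3 kinase complex, fell by 0.37 ± 0.09 (adjusted p = 0.0475) by 1 probe, while its other probe gave 0.36.

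**Figure D4:**
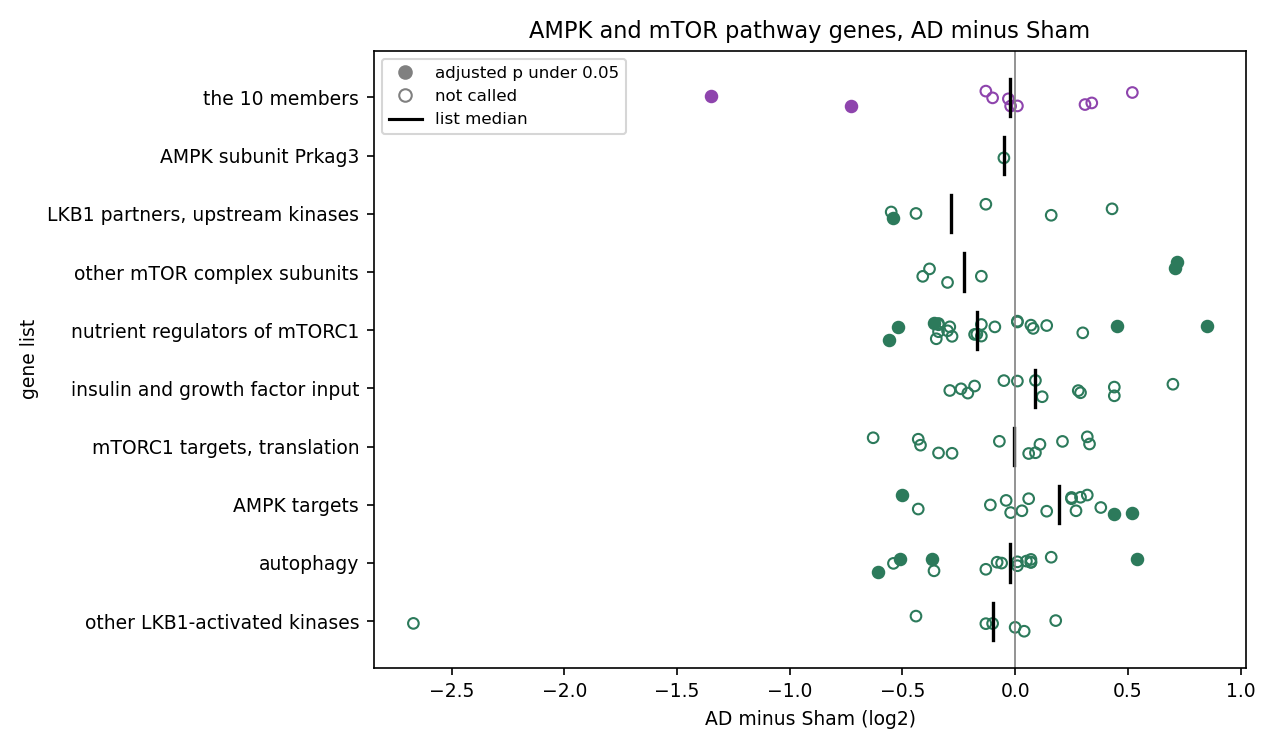
AD minus Sham difference (log2, horizontal axis) of the 10 members (purple) and of the 100 other tested pathway genes (green) by list, with filled points for limma adjusted p under 0.05 and black bars for list medians. Filled points lie on both sides of 0, and Sik1 at -2.67 is the farthest from 0 without being called.

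Marker lists of cell types and neighbouring tissues were compared between the groups. Over 1 probe per named gene, 4.08% were called higher and 10.8% lower in AD. The groups did not overlap for 39% of all tested probes. A summed level is the log2 of a list's summed scaled signals. The 8 skeletal muscle markers had a summed level of 0.89, 0.69 and 2.42 in AD and of -0.06 to 0.03 in Sham. Of these markers 2 were called higher, and all 8 lay wholly above the Sham arrays in AD. On AD replicate 3, Prkaa1 and Prkaa2 had their highest AD level, and Prkab1, Prkab2, Prkag2, Stk11 and Rptor their lowest. The 7 tested choroid plexus markers had a median difference of 2.27, and 3 lay wholly above the Sham arrays in AD. Limma called 0 of 7. Relative to Sham, their median level was 3.01, 0.58 and 3.85 on AD replicates 1 to 3. Their summed level, most of which came from Ttr, was 6.34 to 7.08 in AD and 4.77 to 6.67 in Sham. Of 7 tested neuronal markers 5 were called lower, and their summed level was 6.02, 6.08 and 5.90 in AD and 6.27 to 6.43 in Sham. Among the AD arrays, Rptor was lowest on replicate 3 and highest on replicate 2, and Prkaa2 the reverse. For GABAergic interneurons 3 of 6 were called lower, and the summed level was 5.19 to 5.32 in AD and 5.95 to 6.09 in Sham. The 8 markers of hippocampal pyramidal and granule neurons were all tested, with a median difference of 0.16 and 6 of 8 higher on average. Fibcd1 alone was called, lower in AD, and the summed level was 4.47 to 4.65 in AD and 4.78 to 4.85 in Sham. Of 6 oligodendrocyte markers 2 were called higher, Cnp (0.55) and Cldn11 (0.64). Mag was not called at 0.27, while its other probe gave 0.34 (limma adjusted p = 0.0421). Mbp alone was lower on average, at -0.33, and its other probe gave -0.68 (limma adjusted p = 0.0487). The oligodendrocyte summed level was 6.55 to 6.81 in AD and 6.73 to 7.29 in Sham. Of 5 endothelial markers 1 was called higher, Cldn5 (0.42), while Pecam1 gave -0.24. The endothelial summed level was 2.71 to 2.84 in AD and 2.48 to 2.81 in Sham. By 1 probe per gene, limma called 0 of 6 astrocyte and 0 of 6 microglia markers. The other probe of the astrocyte marker Slc1a3 gave -0.44 (limma adjusted p = 0.0284). The part of these shifts in the member values was not tested.

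Genes whose pattern over the 6 arrays was most like that of a member were found by Pearson's r, given as a description since so few arrays leave many close matches. Clu, which encodes the chaperone clusterin, followed Prkaa2 most closely (r = 0.997), and 282 named genes had an r above 0.95 with it. For Rptor it was Acat2, an acetyl-CoA acetyltransferase (0.997, 219 genes), for Mtor Snx3, a sorting nexin (0.9995, 101 genes), and for Prkaa1 Cib3 (0.995, 47 genes).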

How the data were processed

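Single-colour Agilent arrays measured the mRNA of 3 AD and 3 Sham rat hippocampi. Groups came from the sample titles. The deposited scanner output holds background-subtracted processed intensity per spot, made per the file headers with Agilent Feature Extraction 11.0.1.1, and spot flags. The authors also deposited a log2 value table of unstated scaling (column medians of 6.57), in which the columns of AD replicates 2 and 3 are exchanged relative to the scanner output. No normalization of these arrays is given in the methods.

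Control spots and 400 to 559 outlier spots per array were dropped, log2 spots of a probe were averaged, and each array's 75th percentile was subtracted. No spot was saturated (0 on each array). Array number limits the precision. Probes well above background on at least 3 arrays were tested with lmFit and eBayes of limma 3.58.1 (R 4.3.3, statmod 1.5.0), two-sided, without covariates, p-values being adjusted by Benjamini-Hochberg over the 22769 probes and called under 0.05. The script was tested on simulated data. Of 26997 accessions 15252 matched RefSeq symbols of GRCr8. The array was designed on another build, so no probe coordinates are given.

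For pathway lists, 1 probe per gene was used, that of highest mean signal. Named were all members, up to 5 called genes per list of largest change, or the 2 largest where none was called, genes singled out afterwards being marked so. Not every gene most like a member is described. The members and lists were chosen with earlier results of these data known. The alternatives comprised median scaling, quantile normalization, the 75th percentile over detected probes, normexp (offset 50) on median spot and background intensities, since mean spot intensities were not in the columns used here, the authors' table, other filters, the methods' t-test, scan, scan day, slide position or replicate number as block, array weights, and leaving out each array. Scans were told apart by scan time, and no slide number was used in the fits.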

Additional observations from a re-analysis of the deposited data

How the results depend on the processing

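With 3 arrays per group and scan tied to group, calls were less stable than directions, which some alternatives could not change. The counts of called members, of called pathway genes and of all called probes were 2, 15 and 2858 as reported. Limma called 0, 0 and 0 with scan as a random block (3 members, 25 pathway genes and 3672 probes at an unadjusted p under 0.05), with slide position as a block (4, 42 and 6480) and with the replicate block (4, 35 and 6482). The sample titles state no pairing by replicate number. The deviations of same-numbered arrays correlated with r of 0.0283, 0.0721 and 0.138, which cannot show whether samples were paired, as differently numbered arrays were not compared. Within scan day 1, the same fit as without Sham replicate 3, the counts were 4, 21 and 4451, and with array weights 5, 56 and 9872. They were 1, 1 and 352 without a filter. Normexp correction left 7 pathway genes and 1769 probes, and the filter requiring signal on all 6 arrays gave 23 pathway genes. The methods' t-test called 1 member and 1848 probes. Quantile normalization and the authors' table each called 1 member. Leaving out single arrays gave 0 to 4 members, 0 to 21 pathway genes and 0 to 4451 probes, the upper ends without Sham replicate 3, while at least 4856 probes had an unadjusted p under 0.05. Among the called probes 33.1% were higher in AD, against 53.2% with the 75th percentile over detected probes, 17.5% under normexp correction, 44.7% within scan day 1 and 46.1% with array weights. The cause of these differences was not tested. The normexp setting, which includes the offset of 50, moved some differences widely, as from 0.71 to 0.07 for Akt1s1 and from -1.35 to -0.81 for Prkab2.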
